A study of Homo sapiens with 6 samples.

Results

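The collagen chain genes, which encode the chains of the collagen family, were described in 2 human cell lines. Members were the genes whose platform symbol is COL, a number, A and a number with no suffix, which gave 43 genes on 73 probes, of 20046 genes named by 1 symbol on the 47231 probes of the array. A probe counted as measured when its detection value was above 0.99 on all 3 arrays of either line, a condition that 28 probes of 21 collagen genes met. The lines were C28, chondrocytes that the labels name as the control group, and JJ012, a chondrosarcoma line, which is a tumour of cartilage-forming cells. Total RNA was taken from dishes seeded with 5000000 cells and kept for 24 h, with 3 arrays a line, and the labels name neither an agent nor an altered gene in either line. Each group is thus 1 cell line, so a difference between the groups is a difference between these lines and not between cartilage and tumours. Whether the 3 RNA samples of a line were grown as independent cultures is not stated, so the p-values reflect array-to-array spread that may be technical.

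Collagens are secreted proteins of 3 chains wound into a helix, and most types combine chains of several genes. Fibrillar collagens form the banded fibres of skin, bone, tendon and cartilage, network collagens form the sheets of basement membranes and related lattices, and FACIT collagens sit on the surface of fibres. Transmembrane collagens stay anchored in the cell surface, and type VI collagen forms beaded filaments around cells, in cartilage as the pericellular coat of the chondrocyte. Hyaline cartilage is known for types II, IX and XI, and growth plate cartilage that turns into bone for type X.

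The C28 and JJ012 arrays detected 17826 to 19332 of 47231 probes each. Over 15285 probes detected on every array, 2 C28 arrays correlated at 0.994 to 0.996 and 2 JJ012 arrays at 0.986 to 0.992, while a C28 and a JJ012 array correlated at 0.891 to 0.907 (Pearson's r across probes, which are no independent replicates). Of 18 chondrocyte markers, 13 were detected on no array, among them ACAN, COMP, MATN1 and HAPLN1. These 13 also hold the collagen genes COL9A1, COL9A2, COL9A3, COL10A1 and COL11A2, and the list further holds COL2A1 and COL11A1. The marker list is thus not separate from the collagen genes. The transcription factor gene SOX9 was detected on all 6 arrays, with 8.61 ± 0.18 in C28 and 8.07 ± 0.23 in JJ012 (normalized log2 signal, SD, n = 3), and the matrilin gene MATN3 only in C28 (adjusted p = 6.51e-06). The summed signal of the 18 markers, with the signal of the 13 undetected ones included, ran from 675 to 761 in C28 and from 530 to 536 in JJ012. JJ012 replicate 1 carried signal of probes that are bright in C28, at a median of 9.83% of the C28 mean over 122 probes of other genes with a C28 mean of at least 9 on the log2 scale and a detection value under 0.9 on JJ012 replicate 2 (10th to 90th percentile 7.05% to 12.2%). JJ012 replicates 2 and 3 read 1.13% and 2.19% at the same probes, the former being low by the choice of probes and 0.0361% when the median of undetected probes was subtracted as background. Of the 122 probes, 115 were detected on JJ012 replicate 1 and 27 on JJ012 replicate 3. JJ012 replicate 2 detected none of them, by the choice of probes. Because of the signal on JJ012 replicate 1, the lower collagen genes are given below with and without that array. Fits without it still include JJ012 replicate 3 and may not be free of such signal.

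Most measured collagen genes were lower in JJ012 than in C28. A gene was called when its limma p, adjusted over all genes, was under 0.05 and its fitted change reached 2-fold. Of the 21 measured genes 15 were called lower, 2 were called higher and 4 were not called. Of the 15, COL5A3 and COL15A1 were undetected in JJ012, and their bounds given below are under 2-fold. Of all 11515 genes tested, 17.6% were called lower and 13.7% higher. The median log2 fold change, JJ012 minus C28, was −1.87 over the 21 collagen genes and −0.04 over all genes. In 20 of the 21 genes the arrays of the lines did not overlap, against 76.2% of all genes. The lower genes COL3A1, COL5A3, COL4A5, COL4A6, COL6A2, COL15A1 and COL18A1 passed the detection filter through C28 alone, the line in which they are higher. Among the 13 collagen genes detected on all 6 arrays, 8 were lower, 1 was higher and 4 were not called, against 11.1% lower and 10.8% higher of all 9389 genes so detected. The median log2 fold change was −1.45 over these 13 genes and 0.02 over the 9389. In these bulk samples, fewer cells that express a gene and less RNA per cell cannot be told apart.

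**Figure D1:**
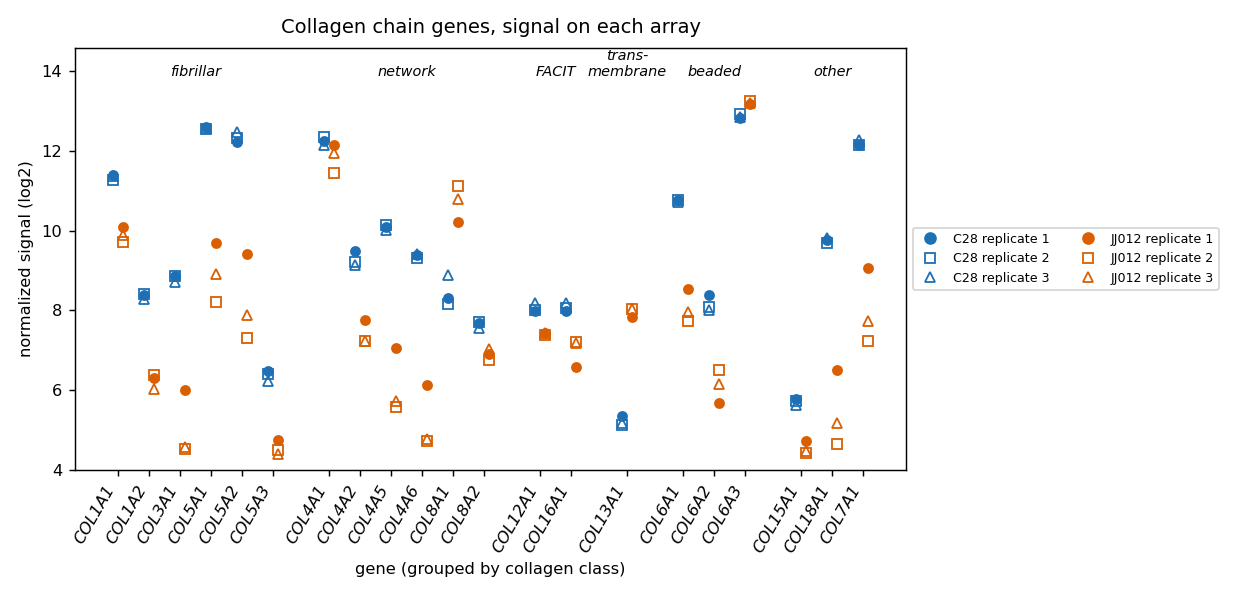
Normalized signal (log2, vertical axis) of the 21 measured collagen chain genes on each of 3 C28 arrays (blue) and 3 JJ012 arrays (orange), grouped by collagen class. COL13A1 and COL8A1 lie higher in JJ012, COL4A1 overlaps between the lines, and JJ012 replicate 1 (filled orange circles) lies above the other JJ012 arrays in COL3A1, COL5A1, COL5A2, COL4A5, COL4A6, COL7A1 and COL18A1.

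All 6 measured fibrillar genes were called lower, and the other 5 fibrillar genes had no measured probe. COL5A1 and COL5A2, whose chains form type V collagen, which starts and limits the growth of type I fibres, were bright in C28. COL5A1 read 12.60, 12.56 and 12.58 on the C28 arrays and 9.70, 8.20 and 8.92 on JJ012 replicates 1, 2 and 3. The arrays of the lines lay far apart and JJ012 replicate 1 was the highest of its line. The log2 fold change of COL5A1 was −3.64 (SE 0.32, adjusted p = 2.70e-05), and −4.00 in the fit without JJ012 replicate 1. COL5A2 read 12.24, 12.33 and 12.47 on the C28 arrays and 9.43, 7.32 and 7.89 on the JJ012 arrays, again with JJ012 replicate 1 highest and no overlap. Its log2 fold change was −4.14 (SE 0.46, adjusted p = 9.63e-05), and −4.74 without JJ012 replicate 1, a fold 1.52 times as large. COL5A3, another type V chain, was dimmer, at 6.38 ± 0.12 in C28, and no JJ012 array detected it. A gene undetected on every array of a line has only a bound, which sets the brighter mean against the higher of the gene's own signal and the lowest detected signal on each array. Every bound is taken from background-corrected signal, so it is no floor for the fold without that correction. An adjusted p given beside a bound is that of the fitted change, which uses the undetected signal as it is. The fitted log2 fold change of COL5A3 was −1.83 (SE 0.12, adjusted p = 5.99e-06), on which its call rests. As a bound COL5A3 was at least 1.61-fold lower, and at least 1.64-fold without JJ012 replicate 1, both under 2-fold.

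COL3A1, the chain of type III collagen of skin, vessels and other stretchy tissue, read 8.87, 8.87 and 8.71 on the C28 arrays and 6.00, 4.52 and 4.58 on JJ012 replicates 1, 2 and 3. JJ012 replicate 1 was the one JJ012 array that detected it, and the arrays of the lines did not overlap. The difference between the lines was −3.78 on the log2 scale (SE 0.36, adjusted p = 3.91e-05). The remaining JJ012 arrays did not detect COL3A1, which against them was at least 8.95-fold lower after background correction.

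The type I chains, the main collagen of bone, skin and tendon, were detected on every JJ012 array. COL1A1 read 11.41, 11.29 and 11.37 on the C28 arrays and 10.10, 9.73 and 9.89 on the JJ012 arrays. Its JJ012 values lay close together below the C28 values, and the lines differed by −1.45 on the log2 scale (SE 0.12, adjusted p = 1.51e-05), and by −1.54 without JJ012 replicate 1. COL1A2 read 8.38, 8.41 and 8.28 on the C28 arrays and 6.31, 6.38 and 6.02 on the JJ012 arrays, with no overlap and with JJ012 replicate 1 between the other JJ012 arrays. Its log2 fold change was −2.12 (SE 0.12, adjusted p = 2.84e-06), and −2.17 without JJ012 replicate 1. A dimmer probe of COL1A2 gave −1.06.

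Network collagen genes differed in both directions, with 3 of 6 measured genes lower, 1 higher and 2 not called. COL4A1 and COL4A2 encode the chains of the type IV collagen found in most basement membranes, and they lie head to head in the genome. COL4A1 read 12.26, 12.35 and 12.16 on the C28 arrays and 12.17, 11.46 and 11.94 on JJ012 replicates 1, 2 and 3. The arrays overlapped, since JJ012 replicate 1 lay above C28 replicate 3. The log2 fold change of COL4A1 was −0.40 (SE 0.18, 95% interval −0.81 to 0.01, adjusted p = 0.0721), which is no call. Without JJ012 replicate 1, the array that made the lines overlap, it was −0.55 (limma adjusted p = 0.0134). That fall is under 2-fold and thus also no call. Without JJ012 replicate 2 or 3 the log2 fold change was −0.20 and −0.44 (limma adjusted p = 0.159 and 0.106). Whether COL4A1 fell by under 2-fold or did not differ thus depended on the JJ012 arrays used. COL4A2 read 9.49, 9.23 and 9.13 on the C28 arrays and 7.76, 7.24 and 7.24 on the JJ012 arrays, with a gap between the lines. Its log2 fold change was −1.87 (SE 0.17, adjusted p = 2.88e-05), and −2.05 without JJ012 replicate 1.

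COL4A5 and COL4A6, chains of a type IV collagen of kidney, skin and smooth muscle basement membranes, are a second head-to-head pair, and both were lower. COL4A5 read 10.10, 10.14 and 10.02 on the C28 arrays and 7.06, 5.58 and 5.72 on the JJ012 arrays, of which replicates 1 and 3 detected it. COL4A6 read 9.40, 9.31 and 9.42 on the C28 arrays and 6.12, 4.73 and 4.77 on the JJ012 arrays, of which replicate 1 alone detected it. In both genes JJ012 replicate 1 stood above the other JJ012 arrays and far below C28. The log2 fold changes were −3.97 for COL4A5 (SE 0.35, adjusted p = 2.63e-05) and −4.17 for COL4A6 (SE 0.34, adjusted p = 1.71e-05). Without JJ012 replicate 1, COL4A5 was at −4.46, and COL4A6, which neither remaining JJ012 array detected, was at least 13.2-fold lower after background correction.

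The promoter windows of both head-to-head pairs are shown because each pair shares sequence, while in one pair 1 chain was called lower and in the other both were. The windows are from RefSeq (build GRCh38.p14), 5′ to 3′ on the strand of the named gene, from 250 bases before to 50 bases after the gene's start, and capitals mark CCAAT or its reverse complement ATTGG.
COL4A1, chr13:110307108-110307407, minus strand: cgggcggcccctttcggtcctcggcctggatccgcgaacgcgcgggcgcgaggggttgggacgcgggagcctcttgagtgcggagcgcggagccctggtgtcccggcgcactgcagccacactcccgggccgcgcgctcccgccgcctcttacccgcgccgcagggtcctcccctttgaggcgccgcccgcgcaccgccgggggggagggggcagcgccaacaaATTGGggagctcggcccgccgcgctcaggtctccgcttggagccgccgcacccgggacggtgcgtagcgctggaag
COL4A2, chr13:110307034-110307333, plus strand: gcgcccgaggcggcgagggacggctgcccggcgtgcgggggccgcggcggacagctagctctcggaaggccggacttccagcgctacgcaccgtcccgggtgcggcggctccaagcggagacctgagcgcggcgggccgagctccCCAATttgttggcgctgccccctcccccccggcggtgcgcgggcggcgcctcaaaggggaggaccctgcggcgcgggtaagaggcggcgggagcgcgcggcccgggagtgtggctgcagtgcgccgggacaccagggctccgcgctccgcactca
COL4A5, chrX:108439588-108439887, plus strand: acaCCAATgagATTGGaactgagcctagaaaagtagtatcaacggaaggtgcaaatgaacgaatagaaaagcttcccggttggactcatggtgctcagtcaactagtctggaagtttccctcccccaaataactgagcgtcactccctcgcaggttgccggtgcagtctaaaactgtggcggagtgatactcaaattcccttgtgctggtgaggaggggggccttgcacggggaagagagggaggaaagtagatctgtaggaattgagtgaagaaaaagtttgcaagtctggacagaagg
COL4A6, chrX:108439409-108439708, minus strand: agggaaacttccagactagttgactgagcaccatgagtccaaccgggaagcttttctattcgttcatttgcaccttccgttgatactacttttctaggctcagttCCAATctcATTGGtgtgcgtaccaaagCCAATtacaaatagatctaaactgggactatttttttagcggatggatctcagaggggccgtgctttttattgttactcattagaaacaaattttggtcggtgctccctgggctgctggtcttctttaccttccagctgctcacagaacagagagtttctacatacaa
The windows of COL4A1 and COL4A2 share 226 bases, with 126 bases between the annotated starts, and the 1 match in each window is the same site read from either strand. The windows of COL4A5 and COL4A6 share 121 bases, with 379 bases between the starts, and hold 3 distinct matches, 2 of them in the shared part. G and C made up 76.7% and 77.7% of the bases in the COL4A1 and COL4A2 windows and 49.3% and 43.7% in those of COL4A5 and COL4A6. Of 34943 RefSeq windows of the same length, 34.6% hold CCAAT on either strand. RefSeq gave 18 windows for 15 of the 21 measured collagen genes, 3 of which, COL4A6 among them, have a second annotated start whose window is not shown for COL4A6. Of these 18 windows 5 held CCAAT, 14 held GGGCGG (44.9% of all windows) and 4 held TATAAA (11.6% of all windows), each on either strand and counted without regard to overlap with another motif or window. A match is a description of the letters and not a site bound by a factor.

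COL8A1, a chain of type VIII collagen that forms lattices under endothelial cells, was higher in JJ012. It read 8.32, 8.17 and 8.89 on the C28 arrays and 10.23, 11.12 and 10.81 on the JJ012 arrays. The lines did not overlap, and JJ012 replicate 1 was the lowest of its line. The log2 fold change of COL8A1 was 2.26 (SE 0.26, adjusted p = 0.000108). Its other probes read 2.30 and 2.33. COL8A2, the other chain of type VIII collagen, read 7.69, 7.71 and 7.56 on the C28 arrays and 6.91, 6.77 and 7.04 on the JJ012 arrays. These values did not overlap, yet the log2 fold change of −0.75 (SE 0.11, adjusted p = 0.000345) was under 2-fold and no call. A dimmer probe of COL8A2, undetected in JJ012, was at least 2.36-fold lower after background correction (adjusted p = 1.72e-06 over all measured probes). The probes of this gene thus differ in their call.

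**Figure D2:**
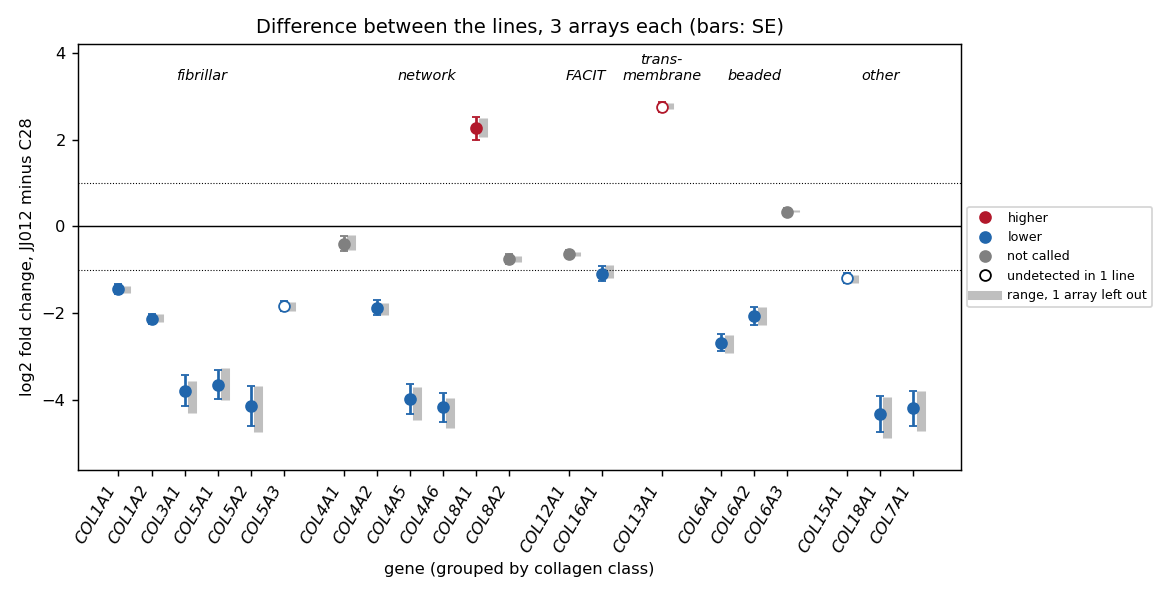
Log2 fold change of each measured collagen gene, JJ012 minus C28, with its SE (3 arrays a line). Dotted lines mark 2-fold, open points mark genes undetected in 1 line, and grey bars give the range when 1 array is left out. The grey bars are longest for the genes with the largest falls, from −4.74 to −3.68 for COL5A2.

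Among FACIT genes 2 of 10 were measured. COL16A1, a chain found on fibres of skin and cartilage, read 7.98, 8.05 and 8.19 on the C28 arrays and 6.58, 7.21 and 7.17 on the JJ012 arrays. JJ012 replicate 1 was the lowest array here. COL16A1 changed by −1.08 on the log2 scale (SE 0.17, adjusted p = 0.000697), and −0.88 without JJ012 replicate 1, which is no call. COL12A1, which links fibres under tension, read 7.98, 8.02 and 8.18 on the C28 arrays and 7.43, 7.38 and 7.43 on the JJ012 arrays. The lines did not overlap, and the log2 fold change of −0.64 (SE 0.09, adjusted p = 0.000390) was under 2-fold.

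COL13A1 was the one measured transmembrane gene of 3. Its chain sits in the cell membrane at sites of adhesion and at the neuromuscular junction. It read 5.36, 5.13 and 5.18 on the C28 arrays, none of which detected it, and 7.84, 8.04 and 8.04 on the JJ012 arrays, all of which did. The gap between the lines was far wider than the spread within either, and COL13A1 was at least 5.63-fold higher in JJ012 after background correction (adjusted p = 6.10e-07). Without that correction its difference was 3.19-fold.

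The chains of beaded filament collagen, type VI, did not change alike. COL6A1 read 10.76, 10.78 and 10.72 on the C28 arrays and 8.54, 7.73 and 7.96 on the JJ012 arrays. Its lines did not overlap, and the log2 fold change was −2.68 (SE 0.19, adjusted p = 9.01e-06), or −2.91 without JJ012 replicate 1. COL6A2 read 8.39, 8.10 and 8.02 on the C28 arrays and 5.67, 6.51 and 6.15 on the JJ012 arrays, of which replicates 2 and 3 detected it. JJ012 replicate 1 was the lowest array of COL6A2, whose log2 fold change was −2.06 (SE 0.21, adjusted p = 5.77e-05), or −1.84 without that array. COL6A3, whose long chain completes the type VI trimer, read 12.83, 12.93 and 12.87 on the C28 arrays and 13.20, 13.26 and 13.20 on the JJ012 arrays. Every JJ012 array lay above every C28 array, and the log2 fold change of 0.34 (SE 0.09, 95% interval 0.15 to 0.54, adjusted p = 0.00693) was under 2-fold. COL6A5 and COL6A6 had no measured probe.

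The remaining measured genes, COL7A1, COL15A1 and COL18A1, were all called lower. COL7A1 encodes the anchoring fibrils that fix the epidermis to the dermis. It read 12.16, 12.14 and 12.27 on the C28 arrays and 9.05, 7.23 and 7.73 on the JJ012 arrays, with JJ012 replicate 1 highest and a wide gap to C28. COL7A1 changed by −4.19 on the log2 scale (SE 0.40, adjusted p = 4.08e-05), and −4.71 without JJ012 replicate 1. COL18A1, a basement membrane collagen whose end is cut off as endostatin, read 9.77, 9.68 and 9.82 on the C28 arrays and 6.51, 4.64 and 5.17 on the JJ012 arrays, of which replicate 1 alone detected it. The fitted difference was −4.32 (SE 0.41, adjusted p = 3.85e-05). With JJ012 replicate 1 left out COL18A1 was at least 17.1-fold lower after background correction. COL15A1, its close relative, was dim in C28 at 5.72 ± 0.07, undetected in JJ012, and at least 1.02-fold lower (adjusted p = 3.84e-05, fitted log2 fold change −1.18). Its call was lost without background correction and with the authors' normalized values (−0.70 in both). With JJ012 replicate 3 left out, or JJ012 replicate 2 alone, no bound above 1 remained for COL15A1, and without JJ012 replicate 1 the bound was 1.03-fold.

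The size of the change of genes near background moved with the background correction. Without it, and with the authors' normalized values, the fold of 8 of the 21 genes differed by over 1.5 times, in each toward a smaller change. The log2 fold change was then −2.55 for COL3A1, −2.91 for COL4A6, −3.15 for COL18A1 and −3.09 for COL4A5. It was −1.50 for COL1A2, −1.41 for COL6A2, −1.03 for COL5A3 and 1.67 for COL13A1. These 8 genes kept their direction and their call, and COL7A1, at −3.86, COL5A2, at −3.84, and COL5A1, at −3.47, then had the largest falls among the collagens.

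Several chains above, COL7A1 and the type IV chains among them, are also made by epithelial cells. Of 6 epithelial markers 3 were measured and 2 of these were lower in JJ012 and none higher, against 17.6% and 13.7% of all genes. The summed signal of the list ran from 1193 to 1330 in C28 and from 158 to 296 in JJ012. The log2 fold change was −1.98 for EPCAM and −3.45 for KRT8, both of which passed the detection filter through C28 alone. KRT18 was detected on every array, overlapped between the lines and was not called (−0.23, adjusted p = 0.219). CDH1 and KRT19 were detected on no array. Of 5 endothelial markers 4 were detected on no array. The 1 measured, PECAM1, was called higher in JJ012 (fitted log2 fold change 1.57, adjusted p = 0.000178), against 13.7% of all genes. No C28 array detected PECAM1, which as a bound was at least 1.66-fold higher, under 2-fold. The list summed to 43.4 to 60.2 in C28, all of it undetected signal, and to 91.5 to 130 in JJ012. Of 6 blood cell markers on the array 4, among them PTPRC, were detected on no array. Of the 2 measured 1 was higher and 1 lower, against 13.7% and 17.6% of all genes. CD68 rose from 9.83 ± 0.13 to 12.80 ± 0.19, and CD14 fell from 9.36 ± 0.20 to 6.65 ± 0.45 (log2 signal). The list summed to 1406 to 1724 in C28 and 6489 to 8284 in JJ012, which is the rise of CD68 and not of the list. The part of these markers in the collagen differences was not tested.

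The JJ012 arrays differed in their signal relative to the C28 mean. In all 7 collagen genes called lower by 8-fold or more, JJ012 replicate 1 read highest of its line, as it did in 98.4% of the 320 such genes on the array (2.78% of all genes tested). On JJ012 replicate 1, which detected all 7, they read 8.27% to 13.4% of the C28 mean after background correction. On JJ012 replicates 2 and 3 COL5A1 read 4.56% and 7.67%, COL5A2 2.76% and 4.24% and COL7A1 2.87% and 4.21%. COL3A1, COL4A6 and COL18A1 were not well above background on either array, nor COL4A5 on JJ012 replicate 2, so their percents there depend on the background subtracted. In 5 of the 7 genes the value on JJ012 replicate 1 lay within 7.05% to 12.2%, the 10th to 90th percentile of the other probes bright in C28 given above, and COL5A1 and COL5A2 lay above it. COL4A6 and COL18A1 meet the definition of those probes and were left out of them. The within-line SD in JJ012 was 0.75 to 1.09 for these 7 genes and 0.17 to 0.42 for the other 8 lower genes.

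Of the other 8 lower genes, COL5A3 and COL15A1 were detected on no JJ012 array and COL6A2 on 2 of 3, while the remaining 5 were detected on every JJ012 array. On JJ012 replicates 1, 2 and 3 COL1A1 kept 41.5%, 31.9% and 35.8% of its C28 signal, and COL4A2 read 32.9%, 22.1% and 22.1%. In COL16A1, at 31.5%, 52.1% and 50.5%, JJ012 replicate 1 was the lowest, as in COL6A2, which read 27.6% and 20.1% on JJ012 replicates 2 and 3 and was not detected on replicate 1. COL1A2 read 20.3%, 21.5% and 15.7%. Over the 15 lower collagen genes JJ012 replicate 1 read highest of its line in 12, or 80.0%, against 67.5% of all 2022 genes called lower. Without JJ012 replicate 1, 14 collagen genes were called lower and 2 higher, with COL16A1 lost.

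**Figure D3:**
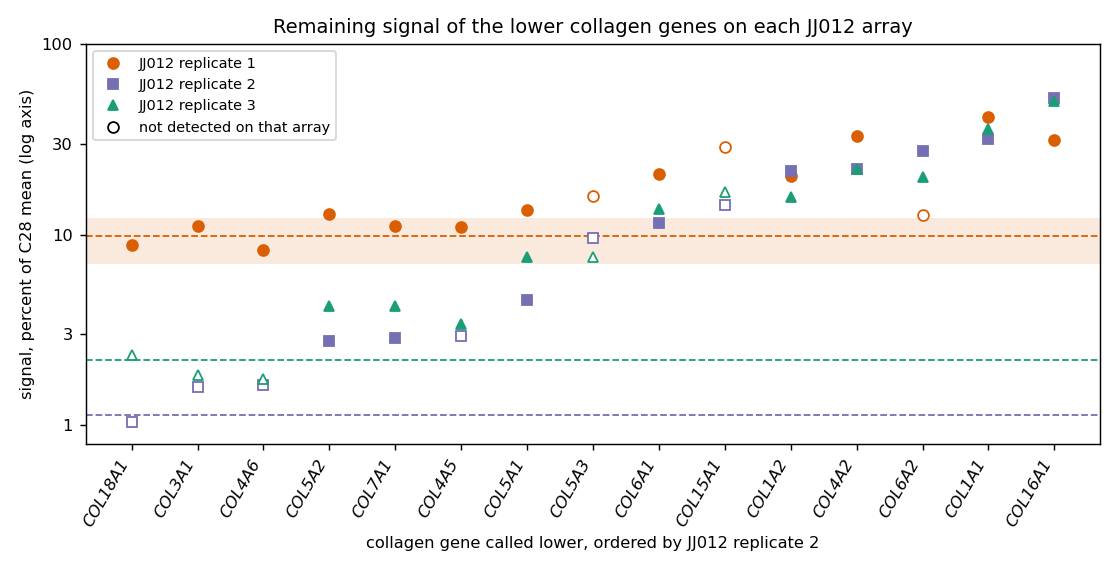
Signal of each of the 15 lower collagen genes on each JJ012 array as a percent of its C28 mean (log axis), ordered by JJ012 replicate 2. Dashed lines give the medians of 122 other probes on JJ012 replicates 1, 2 and 3 (9.83%, 1.13% and 2.19%) and the band the 10th to 90th percentile on replicate 1. Open symbols are values not above background on that array. COL5A2 and COL7A1 read 2.76% and 2.87% on replicate 2, while COL1A1 and COL16A1 on the right stay above 30% on every array.

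Chains that join in the same molecule were also compared within each array, as the log2 difference of 2 chains, whose shift between the lines shows unequal change and not which chain is more abundant. The difference COL4A1 minus COL4A2 was 2.77, 3.13 and 3.02 on the C28 arrays and 4.41, 4.23 and 4.71 on the JJ012 arrays, a shift of 1.47. COL6A3 minus COL6A1 shifted by 3.02 and COL6A3 minus COL6A2 by 2.40. COL8A1 minus COL8A2 was 0.63, 0.46 and 1.33 on the C28 arrays and 3.32, 4.35 and 3.76 on the JJ012 arrays, a shift of 3.01. The arrays of the lines did not overlap in any of these 4 differences, nor in COL4A5 minus COL4A6 and COL1A1 minus COL1A2, whose shifts were smaller. No share of non-overlap over all pairs of genes is given here. COL4A5 minus COL4A6 shifted by 0.20, and its sign turned without background correction. COL1A1 minus COL1A2 shifted by 0.67, by 0.14 with the mean of the COL1A2 probes and by 0.11 without background correction. Over all alternatives the shift was 1.17 to 1.63 for COL4A1 minus COL4A2, 2.76 to 3.40 for COL6A3 minus COL6A1, 1.75 to 2.59 for COL6A3 minus COL6A2 and 2.61 to 3.56 for COL8A1 minus COL8A2. COL5A1 minus COL5A2 at 0.50 and COL6A1 minus COL6A2 at −0.62 overlapped between the lines. Of these 8 differences, 6 reached an exact two-sided permutation p of 0.1 (adjusted p = 0.133), which is the smallest that 3 against 3 arrays can give, so no difference could pass 0.05.

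**Figure D4:**
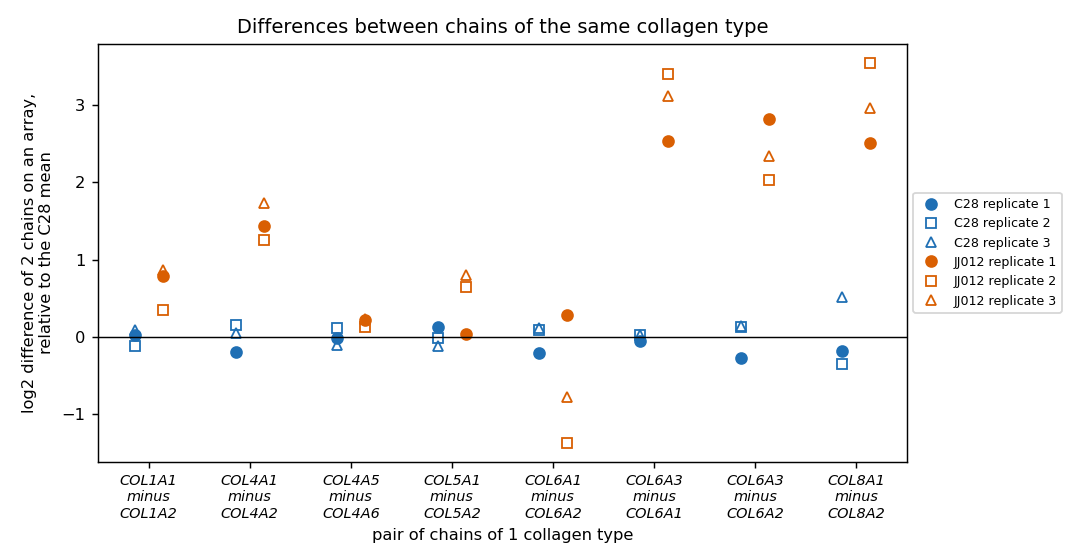
Log2 difference between 2 chains of the same collagen type on each array, relative to the mean difference in C28. JJ012 arrays (orange) lie above C28 arrays (blue) by 1.47 for COL4A1 minus COL4A2 and by 3.02 for COL6A3 minus COL6A1, and overlap them for COL5A1 minus COL5A2 and COL6A1 minus COL6A2.

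Of the 21 genes, 6 had more than 1 measured probe, 13 probes in all, and in 5 of these 6 the probes fell on the same side of the call. The exception was COL8A2, described above. Over the 28 measured probes 19 were called lower and 4 higher, against 15.9% and 13.9% of all 19384 measured probes. The sizes differed between probes of a gene. The dimmer probe of COL4A5, undetected in JJ012, gave a bound of at least 3.42-fold, and the second COL6A2 probe gave −1.66. The second COL6A3 probe gave 0.54, under 2-fold like the first. A further 5 probes of measured genes were not themselves measured, and 1 of them went against the call of its gene. This COL6A2 probe, detected on 1 JJ012 array, read 5.45, 5.26 and 5.30 on the C28 arrays and 5.63, 5.83 and 5.53 on the JJ012 arrays, slightly higher in JJ012 without overlap.

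**Figure D5:**
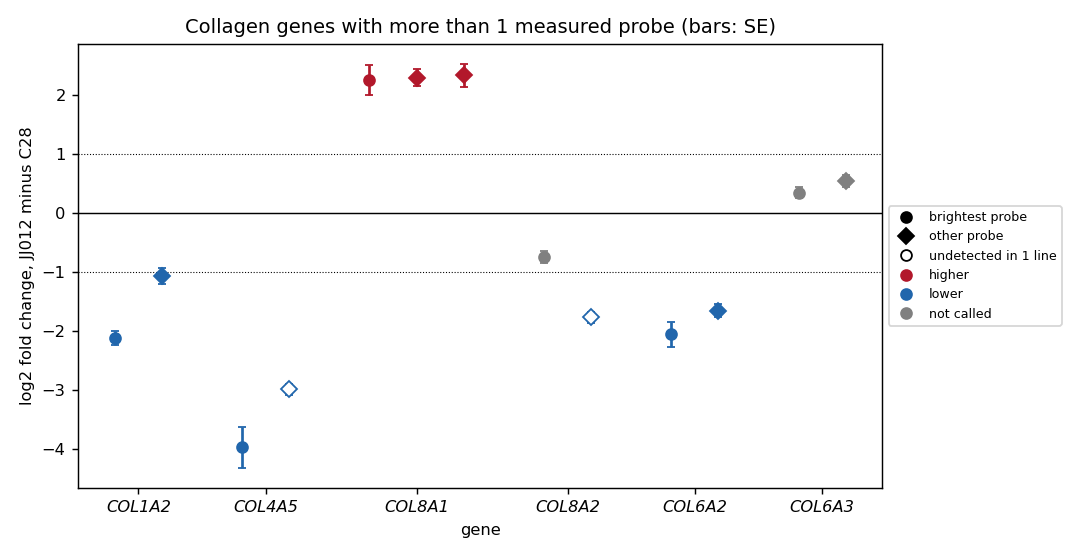
Log2 fold change (JJ012 minus C28) with its SE for each measured probe of the 6 collagen genes with more than 1. The 3 COL8A1 probes lie between 2.26 and 2.33, while the COL8A2 probes lie on either side of the 2-fold line.

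The 22 collagen genes without a measured probe included the collagens best known from cartilage. COL2A1, COL9A1, COL9A2, COL9A3, COL10A1, COL11A1 and COL11A2 were all among them. Of the 40 probes of these 22 genes, 37 were detected on no array, 2 on 1 array and 1 on 2 arrays. The genes just outside the detection limit were COL11A1 and COL2A1. One of 4 probes of COL11A1, a chain of type XI collagen in the core of cartilage fibres, read 4.46, 4.56 and 4.42 on the C28 arrays and 5.56, 6.17 and 5.67 on the JJ012 arrays, with detection values of 0.988, 0.996 and 0.991 in JJ012. One of 2 probes of COL2A1, the chain of type II collagen, read 5.45, 5.59 and 5.38 on the C28 arrays and 4.68, 4.76 and 4.65 on the JJ012 arrays, with detection values of 0.988, 0.995 and 0.987 in C28. Just inside the limit, COL15A1 had a lowest detection value of 0.996 in C28. The other unmeasured genes were COL24A1 and COL27A1 of the fibrillar class, COL4A3 and COL4A4 of the network class, COL14A1, COL19A1, COL20A1, COL21A1 and COL22A1 of the FACIT class, COL23A1 and COL25A1 of the transmembrane class, COL6A5, COL6A6, COL26A1 and COL28A1. An array that does not detect a probe sets no limit on the protein.

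Of 31 genes that make and trim collagen 23 were measured, with 3 higher (13%), 5 lower (21.7%) and 15 not called. These shares are near those of all genes, 13.7% higher and 17.6% lower. LOX, which cross-links collagen, rose from 7.20 ± 0.28 to 12.52 ± 0.09 (a difference of 5.32, SE 0.15, adjusted p = 1.52e-07), with every JJ012 array above every C28 array. Its relatives LOXL4, undetected in JJ012 and at least 4.43-fold lower, and LOXL1, at −1.76, were lower. ADAMTS2, which removes the front propeptide of fibrillar collagen, was at least 3.08-fold higher, and BMP1, which removes the end propeptide, was lower at −1.55. The bounds of LOXL4 and ADAMTS2 hold after background correction. Without it their log2 fold changes were −1.74 and 1.13. PCOLCE and PCOLCE2, which help BMP1, went in opposite directions, at −1.36 and 2.00. The prolyl hydroxylase gene P4HA2 was at −1.30. SERPINH1, the collagen chaperone, read 9.58 ± 0.40 in C28 and 9.56 ± 0.41 in JJ012, and P4HB 12.24 ± 0.17 and 12.07 ± 0.04, both without a call (adjusted p = 0.95 and 0.199).

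Of 10 collagen receptor genes 8 were measured, with 2 higher and none lower by limma, against 13.7% and 17.6% of all genes. ITGA10, the integrin chain best known from chondrocytes, was at least 13.1-fold higher in JJ012 after background correction (adjusted p = 8.25e-07). Without that correction its log2 fold change was 2.66. ITGA2 rose from 6.49 ± 0.08 to 9.10 ± 0.57 (a difference of 2.61, SE 0.25, adjusted p = 4.42e-05). Their partner ITGB1 was bright in both lines, at 13.75 ± 0.05 and 13.46 ± 0.02, without a call (adjusted p = 0.0132, under 2-fold). ITGA11, at −0.89, passed 2-fold without JJ012 replicate 1 (−1.19) and without C28 replicate 2 (−1.02), and was named after its values were seen. Of 8 genes for proteases that cut collagen 2 were measured, 1 higher and 1 lower, with the same shares of all genes as background. MMP1, an interstitial collagenase, fell from 10.99 ± 0.17 to 7.49 ± 0.91 (a difference of −3.49, SE 0.40, adjusted p = 0.000102). FAP was at least 2.99-fold higher after background correction, and its log2 fold change was 1.20 without it.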

How the data were processed

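Total RNA of C28 and JJ012 was measured on Illumina arrays, 3 a line. The authors deposited mean intensity per probe, on a linear scale not normalized between arrays and with no value below 0, and beside it a fraction per the file headers called a detection p-value, read here as 1 minus that p since bright probes are at 1. A deposited table of the authors' normalized log2 values, each probe centred on its median over the 6 arrays (array medians −0.003 to 0.004), was an alternative. How its arrays were normalized and the scanner software are not stated in the labels or headers. Its log2 fold changes were nearly those found without background correction, at −1.393 and −1.39257 for COL1A1 and −3.14633 and −3.14614 for COL18A1. These alternatives are thus no independent checks of each other.

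Intensities were processed with neqc of limma 3.58.1 (R 4.3.3, offset 16, quantile). The 19384 measured probes gave 11515 genes, each on its brightest measured probe, named through the platform annotation and checked against RefSeq (GRCh38.p14). Of all probes, 30113 had 1 symbol, 8 several and 17110 none. The lines were compared, JJ012 minus C28, by limma (lmFit, eBayes, two-sided, Benjamini-Hochberg over all genes). The fit was tested on simulated data. Percents of C28 use signal less the offset. Every measured collagen gene is named, and of other lists the called genes, up to 6 a list, with SERPINH1, P4HB, LOX and ITGB1. SOX9 and KRT18, measured but not called, are named with their lists. The members and lists were chosen with earlier results of these data known. Detection limits precision, with the number of arrays. Alternatives changed scaling, background, filter, probe choice, weights, the replicate block and the arrays used.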

Additional observations from a re-analysis of the deposited data

How the results depend on the processing

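Over the 21 measured collagen genes, 362 of 371 values under the alternatives kept their direction and side of the call, and none turned its direction, though without background correction and with the authors' normalized values the fold of 8 genes moved by over 1.5 times. The authors' values and those without background correction were nearly the same, so in this count they are no independent checks. COL16A1 was under 2-fold without background correction (−0.80), with normexp without negative controls (−0.97), with the authors' normalized values (−0.80), with array weights (−0.95), without JJ012 replicate 1 (−0.88) and when JJ012 replicate 2 alone stood for its line (−0.86). COL15A1 was under 2-fold without background correction and with the authors' normalized values (−0.70 in both), and COL8A2 passed 2-fold with the mean of its probes (−1.26). With 1 array left out, 14 to 15 collagen genes were lower and 2 higher. With detection required on all 6 arrays, 14 collagen genes remained to be tested, with 9 lower and 1 higher (1 more than the 13 and 8 above, since COL6A2 is then read from another probe, at −1.66), 10 collagen probes were lower, 1 receptor gene and 0 protease genes were higher by limma (ITGA10 and FAP were not detected in C28), and 1043 of all genes were lower and 1014 higher. With a looser filter or none, COL11A1 joined the higher genes (1.32, adjusted p = 0.000172 with the looser filter). Median scaling moved the median of all genes from −0.04 to −0.23 and the share of lower genes among all calls from 56.3% to 67.0%, while collagen genes stayed at 15 lower and 2 higher. When JJ012 replicate 2 alone stood for its line, a fit that assumes it varies like the C28 arrays, log2 fold changes were −5.01 for COL5A2, −4.34 for COL5A1, −4.95 for COL7A1, −5.17 for COL18A1, −4.40 for MMP1, −4.28 for KRT8 and 1.96 for ITGA2. ITGA11 made 1 lower receptor gene with median scaling (−1.02), array weights (−1.05), JJ012 replicate 2 alone (−1.20), and in the fits with 1 array left out, which gave 0 to 1. PECAM1 was under 2-fold without background correction and with the authors' normalized values (0.82 in both). SERPINH1, never called, turned its direction with array weights (0.10), with JJ012 replicate 2 alone (0.37) and with 1 array left out (−0.25 to 0.20). The comparison of chains within an array was added after seeing the data, and the shift of COL4A5 minus COL4A6 in it was −0.18 without background correction and with the authors' normalized values. The signal on JJ012 replicate 2 at the 122 probes bright in C28 was 0.0361% of their C28 mean when the median of undetected probes was subtracted. The labels' replicate numbers do not pair the arrays (same-numbered arrays correlated at −0.04, −0.07 and 0.07 in their deviations from the line means), and a replicate block left 15 collagen genes lower and 2 higher, and 2022 of all genes lower and 1572 higher. A block by slide was not run, since no slide is given in the files used. Signal near background limits the size of the change of COL3A1, COL4A5, COL4A6, COL18A1, COL5A3, COL15A1, COL6A2, COL1A2 and COL13A1. The same holds for LOXL4, ADAMTS2, ITGA10, FAP and PECAM1.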
